A study of Mus musculus with 13 samples.

Results

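The regions described here are the peaks of STAG1, STAG2 and CTCF that lay in gene deserts, taken as stretches more than 200 kb from the span of every protein-coding gene. In each of the 12 peak lists, every peak on chromosomes 1 to 19 was kept whose whole interval met that distance, measured on mm10 against the protein-coding genes of GRCm38.p6. This gave 9790 of the 563452 peaks of the series, between 449 and 1446 per library. The rule used positions and gene spans only, so strength, overlap and recurrence of the peaks were free to differ. The word desert refers to protein-coding genes alone: the same stretches held 1125 lncRNA genes, and 5 of them held antigen receptor gene segments.

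The series mapped the 3 proteins by chromatin immunoprecipitation and sequencing (ChIP-seq) in NU1, a wild-type line of mouse urothelial cells, the lining of the urinary tract, that became immortal spontaneously on passaging. Proliferating cells were kept in a medium with EGF. Quiescent cells were grown to confluence in that medium and then received 1 uM rosiglitazone, a PPAR gamma agonist, and 0.5 uM erlotinib, an EGF receptor inhibitor. Each antibody was used on 2 biological replicates per state, so 6 groups of 2 libraries are compared, all from a single line. No time in the drugs was given in the labels. A test of the state therefore compares confluence and both drugs together with growth, and none of them can be told apart. The lists hold binding and no expression, so the urothelial identity of the cells could not be checked against marker genes. The p-values below measure the spread between these libraries.

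Cohesin is a ring-shaped complex that holds sister chromatids together and folds chromosomes into loops. It carries either STAG1 or STAG2 as a subunit. CTCF is a zinc finger protein that binds a long DNA motif and halts cohesin, so many cohesin sites lie at CTCF sites, while cohesin without CTCF has been linked to enhancers and active genes. Gene deserts often flank genes that control development or nerve cell contacts and can hold their distant enhancers.

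A few desert sites lay at the start of a long noncoding RNA, and their sequences are shown here because they let the binding be seen on the DNA itself. A site is the union of all peaks that shared at least 1 bp over the 12 libraries. RefSeq windows of GRCm38.p6 running from 250 bases before to 50 bases after a start were available for 1023 starts of 881 genes inside the deserts. Of these windows, 46 touched a desert site and 18 touched a desert site called in all 12 libraries. In 3 of the 18, for Mir100hg, 4930471G24Rik and Gm13652, the 12 summits all fell inside the window. They are printed 5′ to 3′ on the strand of the gene, and capitals mark the 9 letters CCNCTAGGG.
Mir100hg, chr9:41474643-41474942, + strand: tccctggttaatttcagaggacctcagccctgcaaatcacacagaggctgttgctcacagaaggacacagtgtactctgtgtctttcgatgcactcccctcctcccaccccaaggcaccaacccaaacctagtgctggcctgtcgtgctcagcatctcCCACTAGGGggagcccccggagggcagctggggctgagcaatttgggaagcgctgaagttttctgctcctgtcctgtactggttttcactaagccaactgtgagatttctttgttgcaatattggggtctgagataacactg
4930471G24Rik, chr13:47667300-47667599, + strand: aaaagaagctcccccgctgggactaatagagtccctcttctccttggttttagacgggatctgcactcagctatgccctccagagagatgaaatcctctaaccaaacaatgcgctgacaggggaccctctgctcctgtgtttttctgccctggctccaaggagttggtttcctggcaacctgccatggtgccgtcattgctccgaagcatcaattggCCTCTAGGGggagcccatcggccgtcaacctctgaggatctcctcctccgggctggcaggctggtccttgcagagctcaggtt
Gm13652, chr2:75137926-75138225, - strand: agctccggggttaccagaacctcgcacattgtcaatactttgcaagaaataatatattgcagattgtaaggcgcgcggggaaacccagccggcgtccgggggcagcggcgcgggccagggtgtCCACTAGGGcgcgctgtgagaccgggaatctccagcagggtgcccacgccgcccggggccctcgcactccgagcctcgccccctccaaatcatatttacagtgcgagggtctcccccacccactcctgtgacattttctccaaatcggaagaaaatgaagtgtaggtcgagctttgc
The summits lay at bases 147 to 189 of the Mir100hg window (median 171), beside capitals at 159 to 167. In the 4930471G24Rik window they lay at bases 213 to 246 (median 231.5), beside capitals at 218 to 226. The Gm13652 window had them at bases 107 to 162 (median 142.5), with capitals at 124 to 132. The letters were chosen after these 3 sequences had been read, so their presence there is no finding. Searched on both strands, with no other motif, they stood in 378 of all 32851 windows (1.15%) and in 6 of the 1023 desert windows (0.587%), and the 3 printed windows were the only ones at a desert site that held them. The letters are a description and not a mapped binding site.

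The deserts held 44 microRNA hairpins, and 3 lay within 1 kb of a desert site. Those of Mir125b-1 and Mir344 are shown because their sites were called in different sets of libraries. Capitals mark the seed, bases 2 to 8.
mmu-miR-125b-5p: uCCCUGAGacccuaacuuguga
mmu-miR-344-3p: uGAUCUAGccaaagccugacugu
The seeds differ. The hairpin of Mir125b-1 (chr9:41581926-41582002) lay 303 bp from a desert site called in 8 libraries, 7 of them STAG libraries, at fold enrichments of 5.17 to 9.49. This site and the Mir100hg site sit in the same desert, between Ubash3b and Gm40514. The Mir344 hairpin (chr7:61877770-61877864) lay 270 bp from a site called in all 4 CTCF libraries, at 6.49 to 15.5, and in no STAG library. The third, Mir8099-2, lay 988 bp from a site of the 2 quiescent STAG1 libraries. Fold enrichment is the authors' value for each peak over their background, used here to describe peaks within a list.

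The 737 deserts between neighbouring protein-coding genes covered 479 Mb, 19.7% of the 2429 Mb between the outermost such genes of the autosomes. They held few peaks. Desert peaks made up 1.76% and 2.18% of the autosomal peaks in the proliferating STAG1 libraries, and 1.83% and 2.12% in the quiescent STAG1 libraries. For STAG2 the shares were 1.66% and 1.69% during growth and 1.77% and 1.33% in quiescence. CTCF had 1.55% and 1.71% during growth and 1.42% and 2.06% in quiescence. The highest and the lowest of these values came from a proliferating STAG1 and a quiescent STAG2 library, and all antibodies fell in a narrow band. Per Mb of desert, between 0.929 and 2.98 peaks were called in a library. Per Mb of the remaining sequence there were 17.1 to 35.2, or 11.1 to 18.4 times as many in the same library.

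**Figure D1:**
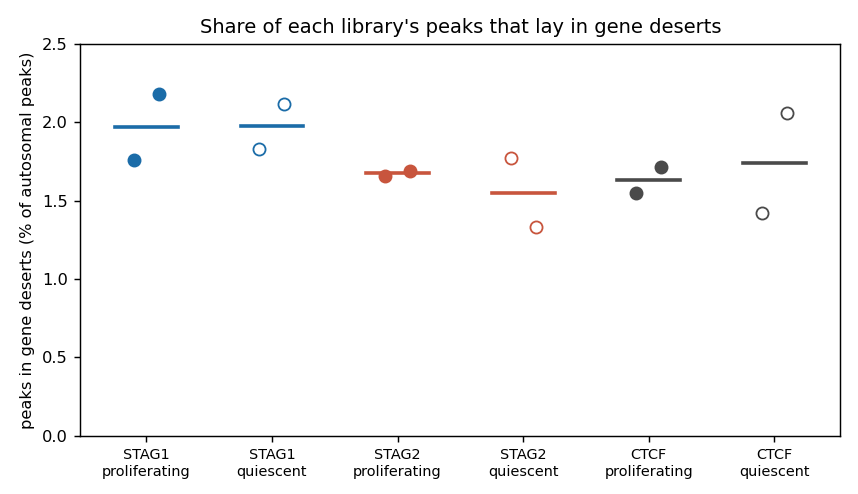
Peaks in gene deserts as a percentage of all autosomal peaks, for each of the 12 libraries (points; filled proliferating, open quiescent) with the mean of the 2 libraries of a group (line). The 2 states of each antibody overlap, and in each state both STAG2 points lie below both STAG1 points.

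Quiescence did not detectably move the desert share. Over the 3 antibodies the mean change, quiescent less proliferating, was -0.00329 percentage points (exact permutation of the state within each antibody, two-sided p = 0.972, 12 libraries). For STAG1 and STAG2 alone it was -0.0600 points (p = 0.944 in the same exact test, whose smallest possible p is 0.0556). The STAG change less the CTCF change was -0.17 points (exact permutation p = 0.667). These changes were smaller than the spread between replicates, for example 2.06% against 1.42% in quiescent CTCF. The STAG share exceeded the CTCF share by 0.106 points, also within the spread (exact permutation p = 0.564).

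Desert peaks made up a somewhat larger share of STAG1 lists than of STAG2 lists. The mean was 1.97% ± 0.297 (SD, n = 2) for STAG1 and 1.68% ± 0.0209 for STAG2 in proliferating cells, and 1.97% ± 0.205 against 1.55% ± 0.310 in quiescent cells. The shares did not overlap between STAG1 and STAG2 in either state, while the numbers of desert peaks did. STAG2 less STAG1 was -0.359 points, with the smallest p that this design allows (exact permutation within states, two-sided p = 0.0556, adjusted p = 0.102 over the 11 tests made). The difference thus missed the threshold. With a border of 500 kb in place of 200 kb it was -0.115 points, and with every gene of the table, noncoding ones included, as a border it was -0.0473 points.

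The desert peaks were weaker than the other peaks of the same list. Every peak was ranked by fold enrichment within its list, from 0 to 100. The median percentile of desert peaks ran from 27.0 in quiescent STAG2 replicate 1 to 51.1 in proliferating STAG1 replicate 1, against 49.9 to 50.8 for other peaks. The mean difference, desert less other, was -11.0 percentile points, and it was below 0 in 11 of 12 libraries (exact sign-flip test, two-sided p = 0.000977, adjusted p = 0.00537). The exception was proliferating STAG1 replicate 1, at 1.10 points. Median fold enrichment in the deserts was 5.49 to 8.98, against 6.99 to 9.89 elsewhere. Strong desert peaks existed all the same: between 28 and 70 per library, 3.60% to 9.15% of its desert peaks, stood above the 90th percentile of their list. Among the 20000 peaks of lowest q in each library, the difference in percentile shrank to -3.78 points, and beyond 500 kb it was -17.8 points.

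Desert peaks were also narrower and stood alone. Their median width was 414 to 486.5 bp, against 529 to 567 bp for other peaks, with a mean difference of -101 bp in 12 of 12 libraries (exact sign-flip p = 0.000488, the smallest possible, adjusted p = 0.00537). The nearest peak of the same list lay a median of 56.0 to 130 kb away for desert peaks and 3.89 to 8.01 kb for the others. Their distance to the nearest protein-coding gene had a median of 294 to 347 kb, and the farthest lay 2187 to 2231 kb out.

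Fewer desert peaks were called in the other library of the same group. In STAG1 the shares were 68.5% and 42.6% in proliferating and 69.3% and 58.4% in quiescent cells. STAG2 gave 56.3% and 57.8%, then 48.2% and 72.4%, and CTCF gave 66.3% and 61.8%, then 81.2% and 41.4%. The lower value belongs to the longer list of the group in 5 of 6 groups, all but proliferating CTCF. Other peaks were matched in 64.7% to 90.1% of cases, more often than the desert peaks of the same list in 12 of 12 libraries. The mean difference over the 6 groups was -18.8 points (exact sign-flip test, p = 0.0312, the smallest possible, adjusted p = 0.0688). Set against other peaks within 10 equal bins of fold percentile, it was -12.7 points. It was -8.06 points among the 20000 peaks of lowest q.

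CTCF was found at fewer of the STAG peaks in deserts. A STAG peak was counted as with CTCF when it shared at least 1 bp with a peak of both CTCF libraries of the same state. In proliferating cells 50.2% and 32.6% of STAG1 desert peaks and 40.2% and 32.6% of STAG2 desert peaks were with CTCF. In quiescent cells the values were 46.6% and 40.9% for STAG1 and 33.5% and 49.0% for STAG2. All 8 lay below the 59.3% to 72.9% of the other STAG peaks. The difference was -25.4 points (exact sign-flip test, 8 of 8 libraries, p = 0.00781, adjusted p = 0.0287). The 4 STAG libraries of a state share the same 2 CTCF lists, so the 8 differences are not independent. Within the 10 bins of fold percentile the gap was -18.6 points, and among the 20000 peaks of lowest q in each library -13.5 points (exact p = 0.0156 there).

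The reverse match was lower in deserts too. CTCF desert peaks matched a STAG peak of both STAG1 or both STAG2 libraries in 42.9% and 35.7% of cases in proliferating and 40.7% and 26.1% in quiescent cells, against 40.3% to 55.2% of other CTCF peaks. The difference was below 0 in 4 of 4 libraries, at -14.2 points on average (exact sign-flip p = 0.125, the smallest that 4 libraries allow). It turned to 5.15 points among the 20000 peaks of lowest q in each library, so its direction held only for the full lists and the other settings tried.

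**Figure D2:**
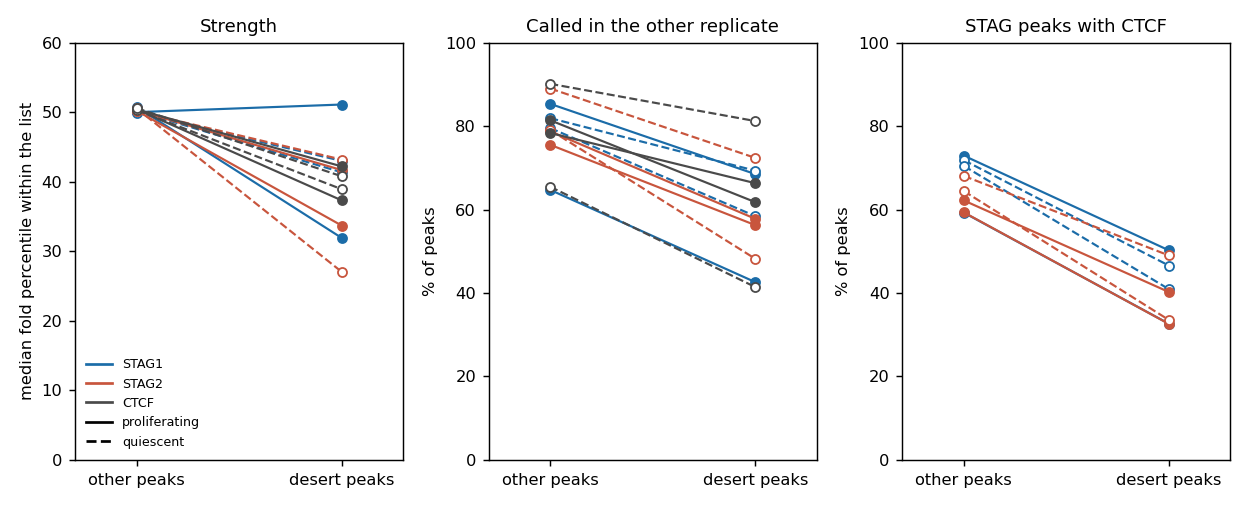
Other and desert peaks of each library joined by a line: median fold percentile within the list (left), share called in the other replicate (middle) and share of STAG peaks with CTCF (right); colours mark the antibody and dashes quiescent cells. All lines fall except the fold percentile of proliferating STAG1 replicate 1, and desert STAG peaks with CTCF reach at most 50.2%.

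For recurrence, CTCF at STAG peaks and fold percentile, the border of 200 kb was a point on a slope and not a step. Over the 12 libraries, peaks called in the other replicate made up 80.4% ± 7.86 (SD) of those within a gene, 77.8% ± 7.76 up to 50 kb, 69.5% ± 10.2 at 100 to 200 kb, 63.8% ± 11.5 at 200 to 500 kb and 50.1% ± 14.5 beyond 500 kb. STAG peaks with CTCF stayed level up to 50 kb, at 67.3% ± 5.19 within genes and 67.3% ± 6.51 close to them. They then stood at 50.7% ± 6.94 at 50 to 100 kb, 42.8% ± 6.44 at 200 to 500 kb and 34.6% ± 10.6 beyond 500 kb (8 libraries). Fold percentile was 49.9 ± 1.69 within genes, 52.7 ± 3.48 up to 50 kb and 32.4 ± 8.80 beyond 500 kb. CTCF peaks with STAG had another course, at 54.1% ± 6.71 within genes and 44.0% ± 7.25 up to 50 kb. They were at 46.1% ± 8.05 at 100 to 200 kb, 40.9% ± 7.83 at 200 to 500 kb and 25.0% ± 6.56 beyond (4 libraries). Sites called again in quiescence were nearly level from 50 kb on, at 79.7% ± 6.18 at 50 to 100 kb and 77.4% ± 10.3 beyond 500 kb (6 libraries). At the border itself, the 203 sites lying 190 to 200 kb from a gene had a median of 2 libraries and a median fold percentile of 25.3. The 162 sites at 200 to 210 kb had 2 libraries and 24.9. The closest site inside was chr3:143988006-143988449 (200080 bp, 3 libraries, toward Lmo4), and the closest outside was chr1:184275622-184276034 (199985 bp, 1 library).

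**Figure D3:**
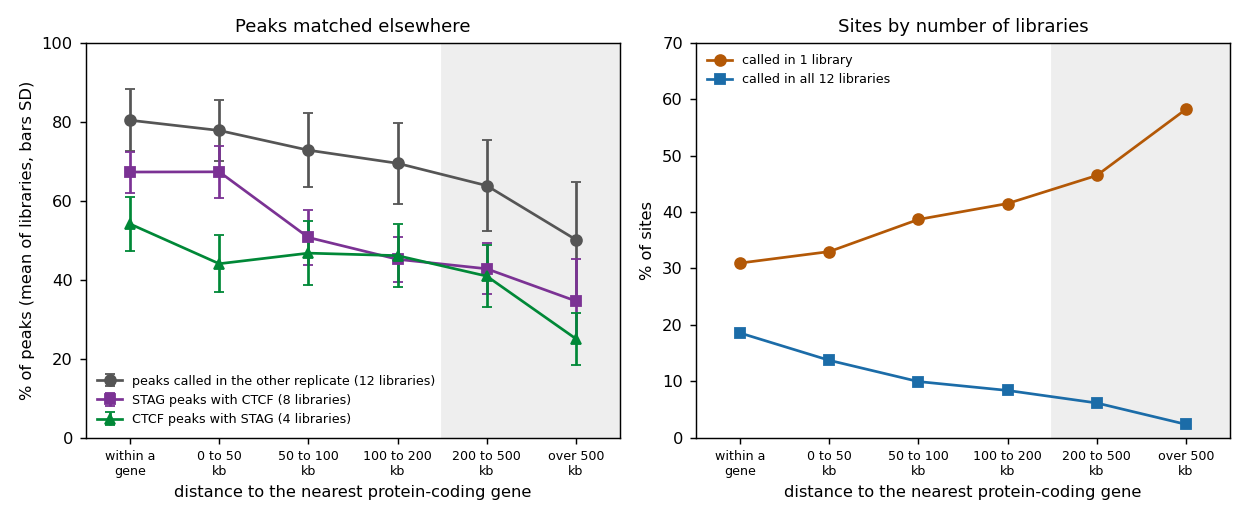
Left, mean share of peaks (bars SD over libraries) matched in the other replicate, with CTCF or with STAG, by distance to the nearest protein-coding gene; right, share of sites called in 1 library and in all 12. The shaded bands are the deserts, where sites of 1 library reach 58.2% and sites of all 12 libraries 2.35% beyond 500 kb.

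Joined over the 12 libraries, the peaks formed 112325 autosomal sites, of which 3277 (2.92%) lay in deserts. Of all autosomal sites, 16.1% were called in all 12 libraries, and among desert sites 161 were, or 4.91%, a share below that background. Most often a site was seen once: 1647 desert sites (50.3%) were called in a single library, against 32.2% of other sites. Beyond 500 kb, 25 of 1062 sites (2.35%) were called in all 12. Desert sites therefore supplied 0.892% of the sites common to all libraries.

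Those 161 sites include some of the strongest peaks of the lists. The strongest by mean percentile was chr13:71458243-71459391, in the 1116 kb between Adamts16, a secreted metalloproteinase gene, and Irx1, an Iroquois homeobox gene of early patterning, 499 kb from the nearer gene. Its fold was 68.4 and 84.3 for STAG1 in proliferating and 83.3 and 104 in quiescent cells. STAG2 gave 54.4 and 65.4, then 86.3 and 65.9, and CTCF gave 56.9 and 89.3, then 87.3 and 70.4. It stood at a mean percentile of 99.7, high in every library. A second site of the same gap, chr13:71105079-71105780, had folds of 41.9 to 74.4. The gap held 8 desert sites in all, 3 of them called in all 12 libraries.

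Others of the leading 10 are given by their flanking genes. Between Rtl1 and Dio3, an imprinted stretch with a retrotransposon-derived gene and a thyroid hormone deiodinase, chr12:109958506-109959410 had folds of 48.9 to 80.8. The gap beside Msx2, a homeobox gene of skull and limb, held chr13:53688337-53689252, with folds of 43.9 to 72.8, over the lncRNA genes Gm34278 and Gm34332. Between Sall3, a zinc finger factor of limb and nerve development, and Galr1, chr18:81915946-81916984 reached 34.9 to 78.3. From Eef2kmt to Rbfox1, a splicing regulator, chr16:5473117-5474049 had 43.9 to 64.4. The remaining ones were chr1:7396751-7398901 (Pcmtd1 to Sntg1), chr14:71670255-71670929 (Gfra2 to Gm9195), chr17:4778042-4778694 (Nox3 to Arid1b) and the Mir100hg site chr9:41474441-41475352, shown above, with folds of 36.7 to 50.7. Over these 10 sites and all libraries, the lowest fold was 22.96.

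Cohesin without CTCF was a larger part of desert binding than of binding elsewhere. Among the sites that both proliferating libraries of at least 1 protein held, 176 of 839 desert sites (21.0%) had STAG and no CTCF library, against 12.9% of other sites. In quiescent cells the share was 127 of 817 (15.5%), against 9.58%. All 3 proteins were present at 25.6% of the desert sites in proliferating and 22.5% in quiescent cells, against 41.2% and 37.0% of other sites. CTCF without any STAG library made up 19.2% and then 29.5% of desert sites, close to the 19.5% and 30.9% elsewhere. Sites with STAG1 and no STAG2 library numbered 115 (14.1%) in quiescent deserts, against 3.64% of other sites, and 60 (7.15%) against 2.70% in proliferating cells. The opposite class, STAG2 and no STAG1 library, had 30 quiescent desert sites (3.67%, against 4.23%) and 44 proliferating ones (5.24%, against 3.82%). These classes are counts of sites over 2 libraries a group and carry no test.

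Some of these cohesin sites were steady. Of the 267 desert sites called in all 4 STAG2 libraries, 40 (15.0%) matched no CTCF library, against 8.28% of other such sites. The strongest was chr9:50005651-50006538, between Ncam1, a neural adhesion gene, and Plet1, a placenta and epithelial surface gene. STAG2 had folds of 26.0 and 24.0 there in proliferating and 15.97 and 21.0 in quiescent cells, and STAG1 had 7.98 and 15.97, then 9.98 and 8.98. The order is proliferating, then quiescent, replicates 1 and 2, here and below. Between Jag1, a Notch ligand gene, and Btbd3, chr2:137715665-137716448 had STAG2 folds of 27.3, 25.0, 10.7 and 19.3 in the same order. Between Prl5a1 and Sox4, an HMG box transcription factor gene, chr13:28543922-28545031 had 26.0, 12.5, 12.97 and 14.0 within the lncRNA 2610307P16Rik, and STAG1 had 31.4, 26.9, 18.5 and 18.5. In the Ets1 to Kirrel3 gap, chr9:34279885-34280573 was called in the STAG2 libraries and in proliferating STAG1 only. CTCF in all 4 libraries without any STAG library was seen at 86 of 411 desert sites (20.9%), against 19.4% elsewhere.

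Sites that both proliferating libraries held were called again in quiescence less often when they lay in deserts. Of 458 such STAG1 desert sites, 79.9% and 85.8% were called in the 2 quiescent libraries, against 85.7% and 87.2% of other sites. Of 433 STAG2 desert sites, 71.8% and 70.9% were, against 85.7% and 82.7%. For CTCF, 73.9% and 89.9% of 574 were, against 86.0% and 93.0%. The difference was below 0 in 6 of 6 libraries and averaged -8.01 points (exact sign-flip test, p = 0.0312, the smallest possible, adjusted p = 0.0688), with gaps of -13.9 and -11.8 points in the STAG2 libraries and -12.1 points in quiescent CTCF replicate 1. The 2 quiescent libraries of an antibody share their proliferating sites. The lower share was not particular to deserts. By distance it was 87.9% ± 2.62 (SD) within genes and 85.1% ± 5.41 up to 50 kb. It was 79.7% ± 6.18 at 50 to 100 kb, 80.0% ± 5.62 at 100 to 200 kb and 79.0% ± 7.40 at 200 to 500 kb. For STAG1 the gaps between desert and other sites were -5.80 and -1.36 points. The STAG sites were also split into those called in both proliferating CTCF libraries and those called in neither. This kept 294 and 92 of the 458 STAG1 desert sites and 230 and 146 of the 433 STAG2 ones. The STAG difference was then -2.26 points at sites with CTCF (exact sign-flip p = 0.375) and -3.22 points at sites without (exact p = 0.5). The split was chosen after the data had been seen, and its 4 libraries allow no p below 0.125. STAG2 stayed below 0 in both classes, at -6.24 and -2.81 points with CTCF and -10.0 and -6.70 without, while STAG1 ran from -2.54 to 3.48 points. Over the 3 antibodies and without the split, the difference was -5.99 points among peaks with a -log10 q of at least 5. It was -3.70 points among the 20000 peaks of lowest q.

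A site counted as lost when an antibody's proliferating libraries both held it and its quiescent libraries did not, and as gained in the opposite case. With 2 libraries against 2, no single site can be tested. Of all autosomal STAG1 sites 7.72% were lost, and of the desert sites 49 of 458 (10.7%) were. For STAG2 the background was 10.2%, and 82 of 433 desert sites (18.9%) were lost, the highest share of the 6 counts. CTCF lost 4.6% of all its sites and 45 of 574 (7.84%) in deserts. Gains stood above background as well. STAG1 gained 30 of 445 desert sites (6.74%) against a background of 1.26%, and STAG2 gained 18 of 322 (5.59%) against 1.94%. CTCF gained 68 of 587 (11.6%) against 7.44%. Desert sites thus exceeded the background in both directions for each antibody. The desert peaks were also weaker and less often called in the other replicate of the same state. Lost and gained shares were not compared at equal strength, so the part of peak strength in the excess was not tested. The counts depend on single libraries: without proliferating replicate 1 or 2, STAG1 losses were 530 or 163, and without quiescent replicate 2 they were 92. STAG1 gains were 66 and 59 without a proliferating library and 190 and 155 without a quiescent one. STAG2 losses were 331, 327 and 126 without proliferating replicate 1, 2 or quiescent replicate 1, and its gains 49, 75 and 225 without proliferating replicate 1 or quiescent replicate 1 or 2. CTCF losses were 232, 155 and 150 without proliferating replicate 1, 2 or quiescent replicate 2, and its gains 140, 104, 591 and 163 without proliferating replicate 1, 2 or quiescent replicate 1, 2. Leaving out a library means that 1 call in place of 2 makes a site present or absent. The share over all autosomal sites was not computed with a library left out. Whether deserts exceed it there was therefore not tested.

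**Figure D4:**
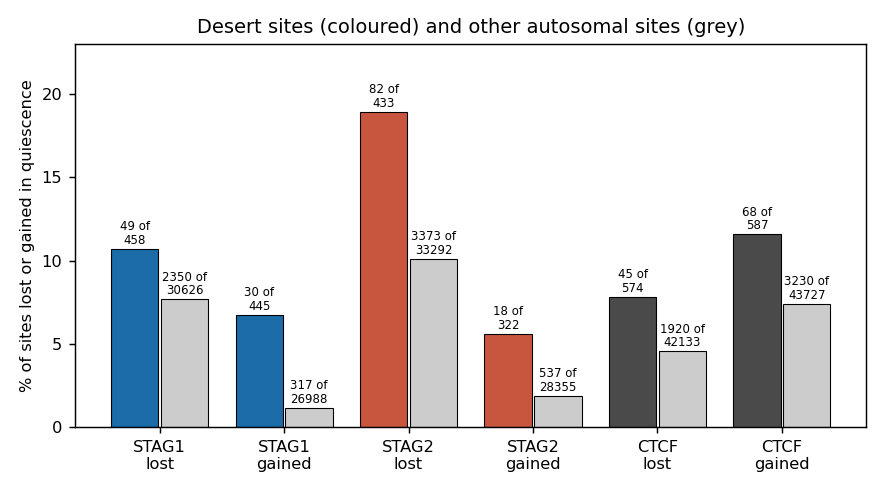
Sites lost or gained in quiescence as a percentage of the sites that both libraries of the starting state (lost) or the quiescent state (gained) held, for desert sites (coloured) and other autosomal sites (grey). The numbers above the bars are the counts, and the desert bar is higher in all 6 pairs, for example 18.9% against 10.1% for STAG2 losses and 6.74% against 1.18% for STAG1 gains.

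Of the lost desert sites, 31 of 49 for STAG1 (63.3%) and 52 of 82 for STAG2 (63.4%) matched no CTCF library. Over all desert sites that both proliferating libraries held, that share was 15.7% for STAG1 and 29.6% for STAG2. Among lost sites outside deserts it was 39.7% and 52.5%. All sites outside deserts that both proliferating libraries held had 8.39% and 15.7%. Gained desert sites matched no CTCF library in 15 of 30 cases for STAG1 and 9 of 18 for STAG2. Over all desert sites of both quiescent libraries the shares were 14.2% and 18.6%. Outside deserts they were 36.9% and 44.3% of gained sites, and 4.87% and 10.0% of all sites of both quiescent libraries. Between Msx2 and Drd1, chr13:53720855-53721629 had STAG1 folds of 10.3 and 7.33 in proliferating cells and no quiescent STAG1 peak, while STAG2 was called in all 4 libraries, at 15.97, 12.9, 8.48 and 6.98. The same pattern held at chr9:50024557-50025290 (Ncam1 to Plet1) and chr9:87464051-87464721, between Cep162 and the T-box gene Tbx18. Leading the STAG2 losses was chr15:62698536-62699038, between Myc and Gsdmc, with 8.62 and 10.8 for STAG2 and 6.90 and 8.62 for STAG1 in proliferating cells and no peak in any other library. By Klf5, an epithelial zinc finger gene, chr14:99535764-99536223 had 8.62 and 9.43 for STAG2. Between Slc4a3 and the ephrin receptor gene Epha4, chr1:76019035-76019577 had 10.5 and 7.49. For these 6 sites, fold percentile was averaged over the 2 proliferating libraries of the antibody that was lost. The means lay between 51.1 and 62.7, near the middle of the lists. None of the 6 had a CTCF peak, but other leading losses did. The STAG1 loss chr14:25017728-25018263 (Rps24 to Zmiz1) was called in all 4 CTCF libraries, at 7.48 to 13.97. STAG2 was lost there too, with 4.99 and 4.49 in proliferating cells. The STAG2 loss chr14:58510729-58511263, beside Fgf9, was also called in all 4 CTCF libraries, at 5.99 to 15.5.

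Examples of the gained sites and of the CTCF losses follow. The leading STAG1 gain, chr18:83445882-83446335 between Zfp516 and Tshz1, a teashirt zinc finger gene, had quiescent folds of 10.5 and 7.49. Of the STAG2 gains, chr6:99971272-99971815 between Prok2 and Rybp, a Polycomb gene, had 10.5 and 12.97. Another, chr13:71457517-71458014, between Adamts16 and Irx1, had 5.99 and 6.98. It lay just beside the strongest desert site, chr13:71458243-71459391. STAG2 was called at that site in all 4 libraries, at 54.4 to 86.3, and whether the 2 sites are separate was not tested. Among CTCF losses, chr13:47642272-47642831 between Rnf144b and Id4, a helix-loop-helix inhibitor gene, had proliferating folds of 12.97 and 11.5. Among CTCF gains, chr8:26686996-26687595 toward Zfp703 had quiescent folds of 8.40 and 19.3. At chr12:25890645-25891224, between Id2 and Rnf144a, they were 5.99 and 20.5.

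Binding was spread unevenly over the deserts. Of the 737, 171 (23.2%) held no site, 566 held at least 1, and 118 held a site called in all 12 libraries. Deserts without a site had a median length of 79.8 kb after trimming 200 kb from each side, against 481 kb for those with a site, and the longest gap without a site spanned 3185 kb. Site density fell with length, from 14.5 per Mb in deserts under 200 kb to 5.30 per Mb in those over 1 Mb. Sites of all 12 libraries went from 106 to 16.5 per 100 Mb over the same range. The 10 deserts with the most recurrent sites held 339 sites, 10.3% of the total.

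The desert with the most sites was an antigen receptor locus. The gap from Gm36448 to Dad1 (chr14:52541357-54235484) spans the T cell receptor alpha and delta loci, with 201 receptor segments that the gene table does not class as protein-coding, and held 80 sites. CTCF was called at 24 and 46 of them in proliferating and 30 and 72 in quiescent cells. STAG1 was called at 8, 15, 5 and 13, and STAG2 at 6, 12, 5 and 10, so no STAG library reached the lowest CTCF library; the CTCF lists were also longer, with 50876 to 70216 autosomal peaks against 33745 to 49647. The immunoglobulin heavy chain gap from Adam6a to Zfp386, with 184 segments, had the same order, with 13, 10, 6 and 29 CTCF sites and 1 to 4 STAG sites. Together 135 desert sites (4.12%) lay in receptor deserts. These genes are rearranged in lymphocytes, and what the binding does in urothelial cells was not measured. With the segments counted as genes, the STAG difference in CTCF was -26.2 points in place of -25.4.

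**Figure D5:**
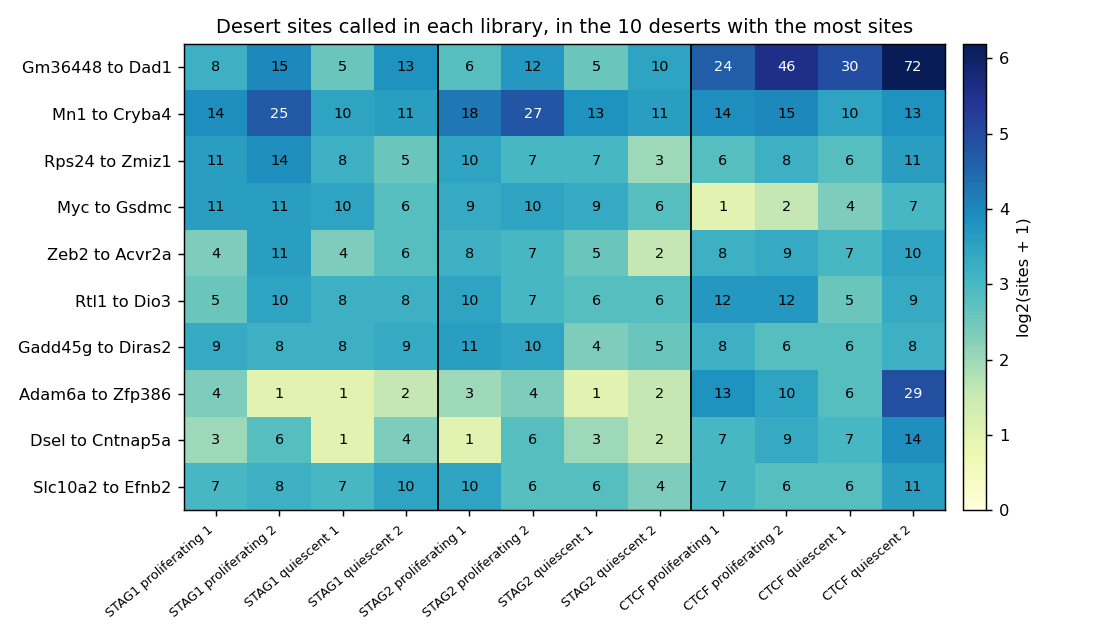
Number of desert sites called in each of the 12 libraries in the 10 deserts with the most sites called in at least 2 libraries, named by their flanking genes; colour is log2(sites + 1) and the number is printed in each cell. CTCF leads in the 2 receptor gaps (Gm36448 to Dad1, Adam6a to Zfp386) and from Dsel to Cntnap5a, and between Mn1 and Cryba4 the proliferating STAG libraries hold 14 to 27 sites.

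The gap from Dsel to Cntnap5a, which holds no receptor segment, had the same order, with 7, 9, 7 and 14 CTCF sites and 1 to 6 STAG sites per library. In the other 7 busy deserts at least 1 STAG library reached the lowest CTCF library. The gap from Mn1, a transcription cofactor gene, to Cryba4, a lens crystallin gene (chr5:111457031-112246491), had 47 sites and 20 lncRNA genes. STAG1 was called at 14 and 25 of them in proliferating and 10 and 11 in quiescent cells, and STAG2 at 18 and 27, then 13 and 11. Both STAG proteins were thus higher in each proliferating library, while CTCF had 14 and 15, then 10 and 13. From Rps24 to Zmiz1, a SUMO ligase family gene, STAG1 had 11, 14, 8 and 5 and STAG2 had 10, 7, 7 and 3. The Myc to Gsdmc gap had 28 sites, with 6 to 11 per STAG library and 1 to 7 per CTCF library. Between Gadd45g and Diras2, STAG2 had 11 and 10 in proliferating and 4 and 5 in quiescent cells, while STAG1 stayed at 8 or 9. In the imprinted Rtl1 to Dio3 gap the 24 sites were split 12 and 12, then 5 and 9 for CTCF, and 5 to 10 for the STAG libraries. The quiescent STAG lists were shorter than the proliferating ones, and the part of list length in these numbers of sites was not tested.

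The 5 longest deserts held 2.84 to 6.41 sites per Mb, against 5.30 per Mb over all deserts longer than 1 Mb. From Pcdh20 to Pcdh9, protocadherin genes 4542 kb apart, 23 sites were called, 7 of them in at least 2 libraries and none in all 12. Celf4 to Pik3c3 (4511 kb) had 19 sites, 14 of them recurrent and 2 in all 12. Olfm4 to Pcdh17 had 22 sites and Tenm3 to Aga 23. Cntnap5b to Cdh20, at 4278 kb, had 11 sites, of which 3 were recurrent, and no more than 4 in any library.

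Flanking genes were counted against 3 lists. Of 88 developmental transcription factor genes, 61 (69.3%) flanked a desert, against 6.29% of all 20665 autosomal protein-coding genes. Their 71 deserts covered 43.6 Mb and held 413 sites, 9.47 per Mb against 6.81 per Mb over all deserts. A site of all 12 libraries lay in 20 of them (28.2%), against 16.01% of all deserts. The gaps with the most such sites lay by Msx2 (4 between Msx2 and Drd1), Irx1 (3 toward Adamts16) and Sox11 (3 toward Dcdc2c). Runx1, Lmo4 and Klf4 had a gap with 2 each. Of 95 neuronal adhesion and synapse genes on autosomes, 72 (75.8%) flanked a desert. Their 101 deserts covered 134.6 Mb and held 4.75 sites per Mb, and 11 (10.9%) held a site of all 12 libraries. Density was lower in long deserts in general, at 5.30 sites per Mb over 1 Mb. The part of desert length in the difference between the lists was not tested. Both lists hold genes known as neighbours of deserts, so the share that flanks deserts is no finding.

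Of 30 urothelial genes, 4 bordered a desert (13.3%, against 6.29% of all genes): Gata3, Klf5, Shh and Tfap2a. Their 4 deserts held 27 sites, 10.5 per Mb, and none of these was called in all 12 libraries. The gap from Celf2 to Gata3 had 20 sites, 10 of them recurrent, and that from Klf5 to Klf12 had 7, of which 6 were recurrent. Toward Rnf32 from Shh, and toward Tfap2a from Ofcc1, no site was called beyond 200 kb.

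Most desert sites lay outside any annotated gene. An lncRNA gene span was touched by 509 (15.5%), and by 43 (26.7%) of those called in all 12 libraries. Pseudogenes were touched by 77 (2.35%), while 2553 (77.9%) touched no gene of the table. By chromosome, site density ran from 3.81 per Mb of desert on chromosome 17 to 9.96 per Mb on chromosome 13, which also held 16 of the sites called in all 12 libraries, against 18 each on chromosomes 1 and 12.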

How the data were processed

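NU1 ChIP-seq for STAG1, STAG2 and CTCF was deposited as 1 peak list per library, so replicates were not pooled. Per the submitters' processing notes the tools were bcl2fastq, BWA, Picard, MACS2 and HOMER on mm10, with versions not given in the sources used here. Each deposited list gives, as the authors' caller wrote them, a fold enrichment (a ratio over background) and a -log10 p-value and -log10 q-value per peak, and the summit. The deposited score was not used. Peak names call the library and the input normalised, by a method not given in the sources used here, and a sample labelled input or IgG was not analysed here. The lists hold no read totals, so depth is unknown, and the number of peaks (33745 to 70216 autosomal peaks per library) limits precision. No 2 lists were identical.

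Distances were computed to the spans of the 20665 autosomal protein-coding genes of the RefSeq table for GRCm38.p6, the build of mm10. Sequences came from RefSeq, GRCm38.p6. Peaks matched when they shared at least 1 bp. Shares were compared between states or antibodies by exact permutation of libraries, and between desert and other peaks of a list by exact sign flips, both two-sided, with Benjamini-Hochberg adjustment over the 11 tests and a threshold of 0.05. Scripts used Python 3.11.15, NumPy 2.4.6, pandas 2.3.3 and SciPy 1.17.1 and were tested on simulated data. Alternatives were other borders, stricter or equal-length lists, all genes, summits, chromosome X, 50% overlap, fold bins, a replicate block and each library left out.

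The regions and lists were chosen with earlier results of these data known. Named sites were the 10 strongest by mean fold percentile in all 12 libraries and the leading 5 of each lost or gained set and of STAG2 sites without CTCF, of which some are given. Named deserts were the 10 with the most sites of at least 2 libraries and the 5 longest. The sites behind the printed windows and microRNAs, and the sites with CTCF alone, were added after their values were seen.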

Additional observations from a re-analysis of the deposited data

How the results depend on the processing

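The gaps between desert and other peaks in width, in fold percentile and in CTCF at STAG peaks kept their direction and an unadjusted exact p under 0.05 in every alternative run, and the lower STAG2 share kept its direction. Recurrence in the other replicate was below 0 throughout, but leaving out any library leaves 32 arrangements, so p cannot go below 0.0625 (-19.3 to -17.7 points). Sites called again, which missed the threshold after adjustment in the full lists, had an unadjusted exact p of 0.0625 at 500 kb (-9.25) and at a -log10 q of at least 5 (-5.99). The value ranged from -13.5 to -6.84 with a library left out, and without any of the 6 quiescent libraries p could not go below 0.0625. Within STAG sites with CTCF (-2.26) or without (-3.22) it could not go below 0.125. CTCF peaks with STAG reversed to 5.15 with 20000 peaks per list.

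Differences in desert share near 0 changed sign. The 3-antibody change was 0.0351 at 500 kb, 0.0848 at the stricter q, 0.0210 with 20000 peaks and 0.00842 with every gene. The STAG change was 0.00927, 0.0546, 0.0174 and 0.00887 in the same order. With every gene, the STAG less CTCF change was 0.00136 and STAG less CTCF -0.0143, which was -0.0660 at 500 kb. With a library left out these 4 values ran from -0.109 to 0.103, -0.170 to 0.0498, -0.488 to 0.148 and, for STAG less CTCF, -0.0530 to 0.265.

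Counts of lost and gained desert sites moved with the setting. The shares over all autosomal sites were not computed in these settings, so the counts do not show whether deserts exceed them. At 100 kb, STAG1 lost 129, STAG2 lost 204 and gained 36, and CTCF lost 108 and gained 136. At 500 kb the lost and gained counts were 6 and 13 for STAG1, 15 and 8 for STAG2 and 10 and 24 for CTCF. With 20000 peaks they were 7 and 12, 14 and 6, and 12 and 6. At the stricter q, STAG1 lost 28 and STAG2 lost 49. With a library left out, losses ran from 65 to 530, 122 to 331 and 58 to 232 and gains from 59 to 190, 24 to 225 and 104 to 591 for STAG1, STAG2 and CTCF. The antigen receptor, 2-library and CTCF-split settings and these counts with a library left out were chosen after seeing the data.

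The replicate block, which pairs libraries of the same number, changed no call: STAG2 less STAG1 was -0.359 with an exact p of 0.125, the change over 3 antibodies -0.00329 (exact p = 0.938), the STAG change -0.0600 (exact p = 0.875), the change difference -0.170 (exact p = 0.531) and STAG less CTCF 0.106 (exact p = 0.568). Over 18042 sites of all 12 libraries, the replicate difference in fold percentile correlated between groups at -0.269 to 0.345, above 0.1 in 5 of 15 pairs of groups. These 5 lay within a state: 0.205 to 0.345 for the 3 proliferating pairs and 0.132 and 0.165 in quiescence, where the third was 0.0972, while pairs across states were at most 0.0246. As not every pair exceeded 0.1, the numbers were not taken as pairs. The sign-flip tests over 12 libraries treat the libraries as independent and do not allow for these correlations within a state. Depth is unknown, so a site not called cannot be read as unbound.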
